A study of Homo sapiens with 14 samples.

Results

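The 6 genes described here are AHR, ARNT, AHRR, CYP1A1, CYP1B1 and TIPARP, core genes of the aryl hydrocarbon receptor pathway, taken by symbol from the 23040 genes that the files list. Their levels were read in all 14 libraries by cell line, ligand and time, and the 6 genes were chosen by those RPKM levels as well as by their role, so their levels are a description and carry no test. The libraries are RNA sequencing of total RNA from Panc-1 and AsPC-1, established human pancreatic cancer cell lines. Serum-starved cells were given epidermal growth factor (EGF, 50 ng/ml) or angiogenin (ANG, 1 µg/ml, a secreted ribonuclease also called hRNase5) and were harvested after 1, 5 or 24 h, and each line has 1 untreated (mock) library. Every condition is 1 library per line, the doses of the ligands differ, and the labels give neither the time nor the serum state of the mock cells.

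AHR is a transcription factor of the bHLH-PAS family that waits in the cytosol until a small molecule, such as a planar aromatic pollutant or a breakdown product of tryptophan, binds to it. It then enters the nucleus, pairs with ARNT and binds DNA elements with the core GCGTG beside its target genes. CYP1A1 and CYP1B1 are cytochrome P450 enzymes that oxidise such ligands and are standard readouts of the receptor. AHRR, a relative of AHR that competes for ARNT, and TIPARP, an ADP-ribosyltransferase that lowers AHR protein, are targets that feed back on it.

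Levels are RPKM, reads per kilobase of transcript per M mapped reads, and 0 means listed at the files' floor. Panc-1 libraries held 11.2 to 16.9 M reads, and AsPC-1 libraries 18.9 to 24.0 M, as worked out from the smallest steps of the values. The share of reads in genes shorter than 400 bp was 5.06 to 13.4% with EGF, 9.92 to 17.1% with ANG and 5.97 to 6.16% in mock. The median gene stood lower in the 1 h and 5 h libraries than in mock, by a log2 ratio of medians of -0.094 for Panc-1 and of -0.30 for AsPC-1. The 5 duct markers KRT8, KRT18, KRT19, KRT7 and EPCAM summed to 889 to 1365 RPKM in the Panc-1 libraries, against 1835 to 2374 RPKM in the AsPC-1 libraries. EPCAM stood at only 4.88 to 5.58 RPKM in Panc-1, and KRT7 stood lower still, at 2.82 to 4.16 RPKM. Libraries of AsPC-1 had KRT7 at 4.55 to 15.7 RPKM and EPCAM at 149 to 230 RPKM. The sums thus rest mainly on KRT8, KRT18 and KRT19, each at 250 RPKM or more in every library. Each marker of lymphocytes, endothelium, fibroblasts, acinar and islet cells or hepatocytes stayed below 1 RPKM.

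All 6 genes reached 1 RPKM in at least 2 libraries. The RefSeq promoter table (GRCh38.p14; 250 bases before to 50 after a start site) matched 5 of the 6 members. For 3 AHR targets the window of the first start site listed is shown, since the level of such genes is the usual readout of AHR. Capitals mark GCGTG or its reverse complement CACGC.
CYP1A1: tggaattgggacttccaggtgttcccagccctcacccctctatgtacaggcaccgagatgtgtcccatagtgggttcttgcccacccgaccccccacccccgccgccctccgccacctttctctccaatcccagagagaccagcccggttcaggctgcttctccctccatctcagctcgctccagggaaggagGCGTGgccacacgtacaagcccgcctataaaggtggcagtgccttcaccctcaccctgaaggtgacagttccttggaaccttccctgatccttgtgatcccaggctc
TIPARP: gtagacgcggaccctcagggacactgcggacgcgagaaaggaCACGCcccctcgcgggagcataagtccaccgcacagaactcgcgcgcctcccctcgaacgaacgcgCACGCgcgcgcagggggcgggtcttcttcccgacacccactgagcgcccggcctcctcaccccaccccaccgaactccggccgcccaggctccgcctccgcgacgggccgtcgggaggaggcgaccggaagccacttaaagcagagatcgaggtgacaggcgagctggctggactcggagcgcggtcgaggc
AHRR: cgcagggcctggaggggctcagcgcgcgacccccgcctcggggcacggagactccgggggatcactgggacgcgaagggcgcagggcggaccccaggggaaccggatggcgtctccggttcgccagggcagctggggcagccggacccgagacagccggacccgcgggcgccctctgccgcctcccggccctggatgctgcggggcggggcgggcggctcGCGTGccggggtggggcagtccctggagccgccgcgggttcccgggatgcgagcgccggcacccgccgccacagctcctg
They lie at chr15:74725479-74725778 (minus strand), chr3:156674340-156674639 (plus strand) and chr5:321464-321763 (plus strand). The CYP1A1 window held 1 core, whose first base is at -57 from the start site, that of TIPARP 2, at -208 and -142, and that of AHRR 1, at -30. The other windows of TIPARP, at 156674676 to 156674975 and 156676414 to 156676713, held 0 cores, and the other AHRR window, at 322360 to 322659, held 2. Of the 8 windows of the matched members 5 held a core, and so did 36.5% of all 35116 windows in the table, so such a match is common. Both strands were searched, and no longer element was asked for.

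AHR itself (hg19, chromosome 7, 17338276 to 17385775) had unlike courses in the lines. In Panc-1 it stood at 30.5 RPKM in mock, at 40.7, 31.5 and 29.7 RPKM after 1, 5 and 24 h of EGF, and at 31.9, 27.8 and 26.9 RPKM after 1, 5 and 24 h of ANG. The 1 h EGF library alone stands clear of the others there, and the 4 early libraries, those of 1 h and 5 h, differed from mock by a mean of 0.097 ± 0.22 in log2(RPKM + 1) (SD over 4 libraries of different conditions). In AsPC-1 it stood at 49.2 RPKM in mock, at 17.3, 13.1 and 30.2 RPKM after 1, 5 and 24 h of EGF, and at 23.3, 17.6 and 49.3 RPKM after 1, 5 and 24 h of ANG. All 4 AsPC-1 libraries of 1 h and 5 h were below mock and below both 24 h libraries, with a mean difference from mock of -1.44 ± 0.32. How many of all genes have such a split in AsPC-1 was not counted, so it is not read as particular to AHR. In bulk RNA, a lower level in each cell and fewer cells with the transcript cannot be told apart.

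**Figure D1:**
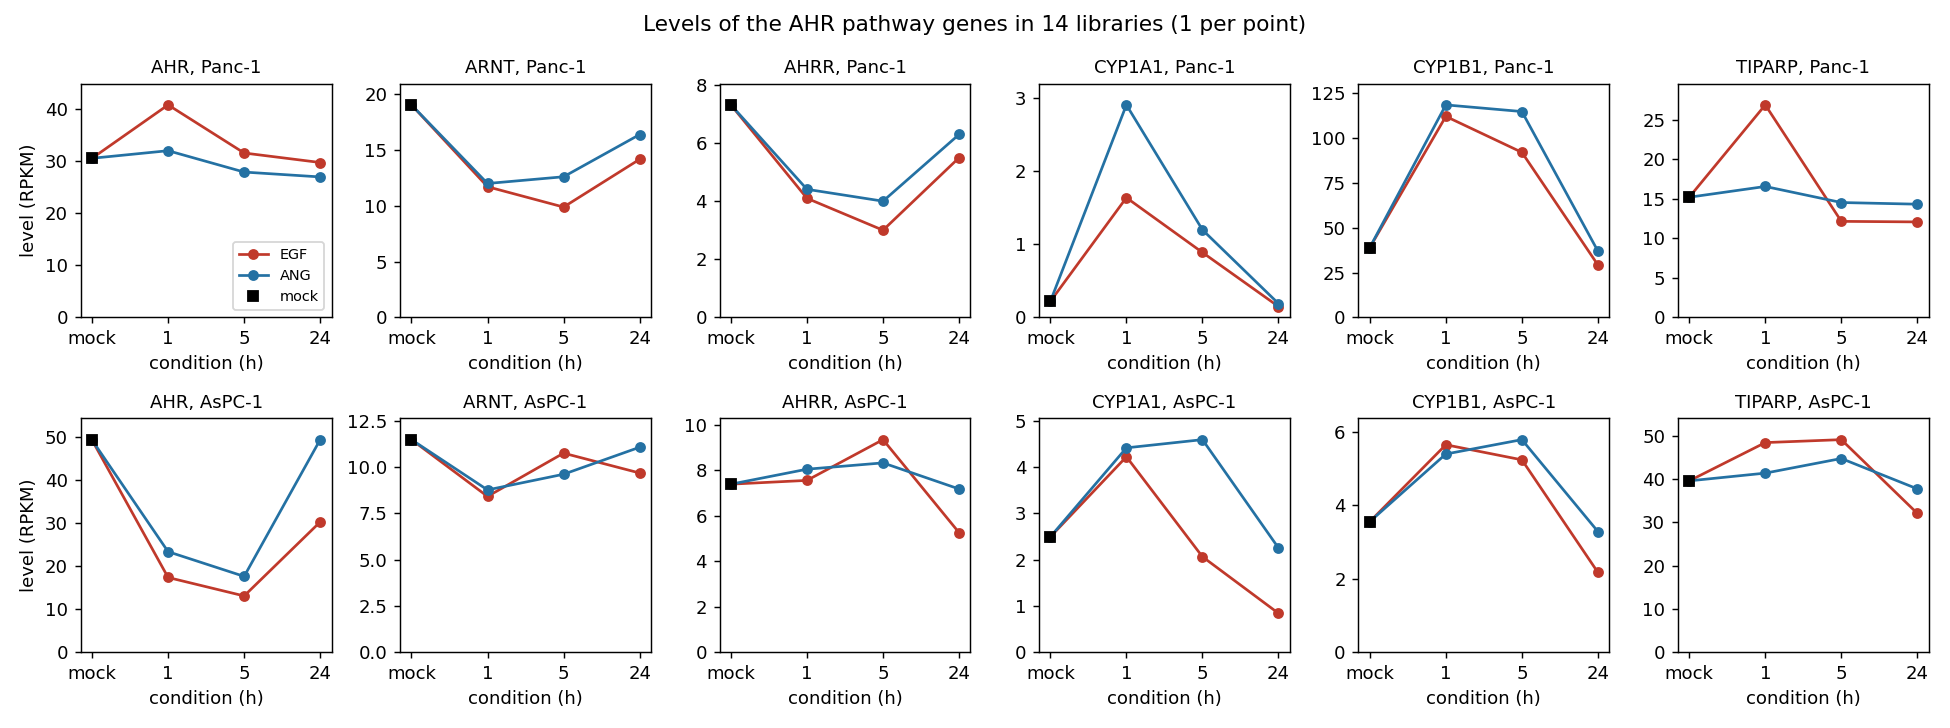
Level in RPKM (y, from 0) in mock and after 1, 5 and 24 h (x, not to scale in time) for each gene, with Panc-1 in the upper row and AsPC-1 in the lower. Each point is 1 library; red is EGF, blue ANG and the black square mock, and CYP1B1 in Panc-1 stands at 91.9 to 118 RPKM at 1 h and 5 h against 29.2 to 38.9 RPKM in the other libraries.

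ARNT, the partner that AHR shares with the hypoxia factor HIF-1α (chromosome 1, 150782181 to 150849244), was below mock in every treated library of Panc-1. It stood there at 19.0 RPKM in mock, at 11.7, 9.86 and 14.1 RPKM after 1, 5 and 24 h of EGF, and at 11.97, 12.6 and 16.3 RPKM after ANG. The early values, 9.86 to 12.6 RPKM, do not overlap those of mock and 24 h, 14.1 to 19.0 RPKM. The share of all genes with such a split in Panc-1 was not counted. In AsPC-1 it stood at 11.5 RPKM in mock, at 8.42, 10.8 and 9.69 RPKM with EGF and at 8.77, 9.62 and 11.1 RPKM with ANG. The mean early difference of -0.27 ± 0.14 in AsPC-1 became 0.0074 when the libraries were scaled to a common median, so its direction depends on the scaling. AHR exceeded ARNT in 14 of 14 libraries, and the ratio of their RPKM had opposite courses in the lines. It was 2.22 to 3.49 in the early libraries of Panc-1 against 1.61 in mock, and 1.21 to 2.66 in those of AsPC-1 against 4.28 in mock.

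The repressor AHRR (chromosome 5, 304291 to 438405) stood at 7.33 RPKM in Panc-1 mock, at 4.11, 3.01 and 5.51 RPKM after 1, 5 and 24 h of EGF, and at 4.42, 4.01 and 6.31 RPKM after ANG. Its 4 early values in Panc-1 lie below the other 3, with a mean difference from mock of -0.78 ± 0.19. As for ARNT, how common such a split is among all genes was not counted. In AsPC-1 it stood at 7.39 RPKM in mock, at 7.56, 9.35 and 5.26 RPKM with EGF and at 8.05, 8.33 and 7.18 RPKM with ANG. The early AsPC-1 libraries were thus above mock in 4 of 4, by a mean of 0.15 ± 0.12, or 0.42 after scaling. AHRR is uncertain, because the span the files give it overlaps that of PDCD6 on the same strand (271736 to 315089), a far more abundant gene. PDCD6 stood at 90.7 to 95.8 RPKM in the early Panc-1 libraries against 108 RPKM in Panc-1 mock, and at 186 to 240 RPKM in the early AsPC-1 libraries against 188 RPKM in AsPC-1 mock. Its part in the AHRR values was not tested.

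CYP1B1 (chromosome 2, 38294746 to 38303323) stood above mock in all 4 early libraries of each line. In Panc-1 it stood at 38.9 RPKM in mock, at 112, 91.9 and 29.2 RPKM after 1, 5 and 24 h of EGF, and at 118, 115 and 36.9 RPKM after ANG. The early Panc-1 libraries were 2.36 to 3.04 times mock, a mean log2 difference of 1.46 ± 0.16. In AsPC-1, where the gene was far lower, it stood at 3.55 RPKM in mock, at 5.64, 5.23 and 2.17 RPKM with EGF and at 5.39, 5.78 and 3.28 RPKM with ANG. All 4 early AsPC-1 libraries were above mock and both 24 h libraries below it, and the mean early difference was 0.52 ± 0.055. Scaling the AsPC-1 libraries to a common median gave 0.76. How common such a split between early and other libraries is among all genes was not counted in either line.

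CYP1A1 (chromosome 15, 75011883 to 75017877) had a like course at a lower level. In Panc-1 it stood at 0.22 RPKM in mock, at 1.64, 0.89 and 0.15 RPKM after 1, 5 and 24 h of EGF, and at 2.91, 1.20 and 0.19 RPKM after ANG. With a transcript of 2685 bases (CYP1A1-201 in GENCODE), these values correspond to about 9 reads in mock, 67, 27 and 5 reads with EGF, and 132, 42 and 8 reads with ANG. The early Panc-1 libraries were thus 4.05 to 13.2 times mock on few mock reads. Their mean log2(RPKM + 1) difference was 1.07 ± 0.45, and 2.33 with a pseudocount of 0.1 RPKM in place of 1. In AsPC-1 it stood at 2.49 RPKM in mock, at 4.22, 2.06 and 0.84 RPKM with EGF and at 4.41, 4.59 and 2.25 RPKM with ANG. The 5 h EGF library of AsPC-1 stands out below the other early ones. It was 0.828 times mock as deposited, and after scaling it stood at 2.29 against 2.24 in mock.

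TIPARP (chromosome 3, 156392205 to 156424557) was high in 1 early library of Panc-1. It stood there at 15.2 RPKM in mock, at 26.9, 12.2 and 12.1 RPKM after 1, 5 and 24 h of EGF, and at 16.6, 14.5 and 14.3 RPKM after ANG. The 1 h EGF library was 1.77 times mock, and the other 5 treated libraries of Panc-1 were 0.795 to 1.09 times mock. After scaling, those of 5 h and 24 h of ANG stood at 14.2 and 14.3 against 13.8 in mock, above it rather than below. In AsPC-1 it stood at 39.6 RPKM in mock, at 48.5, 49.2 and 32.1 RPKM with EGF and at 41.4, 44.8 and 37.8 RPKM with ANG. All 4 early AsPC-1 libraries were above mock, by a mean log2 difference of 0.21 ± 0.11 (0.50 after scaling), and both 24 h libraries were below it. How common this is among all genes was not counted. LOC100287227, which overlaps TIPARP on the other strand, stood at 0.06 to 0.57 RPKM.

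**Figure D2:**
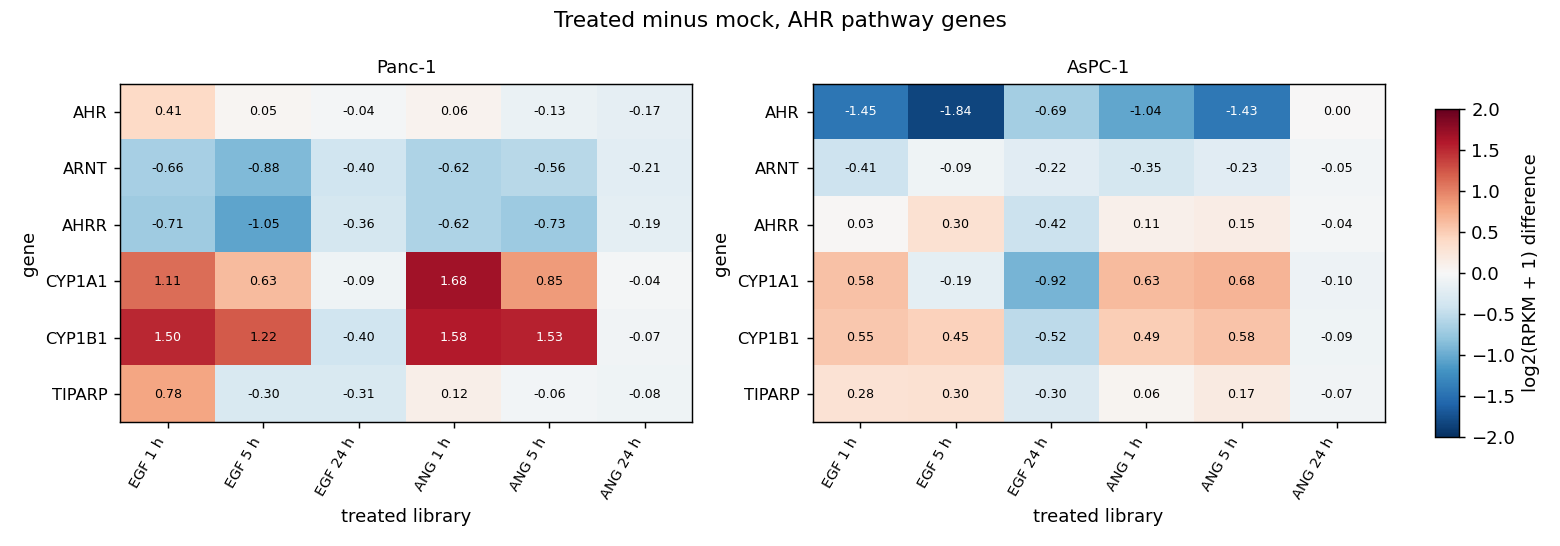
Difference in log2(RPKM + 1) between each treated library (x) and the mock library of its line for each gene (y), Panc-1 left and AsPC-1 right; red is above mock and blue below. CYP1B1 is red at 1 h and 5 h in both lines and AHR is at -1.04 to -1.84 at 1 h and 5 h in AsPC-1 and at -0.13 to 0.41 in Panc-1; the pale blue of ARNT at 1 h and 5 h in AsPC-1 averages 0.0074 after scaling.

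At 24 h CYP1A1 and CYP1B1 each stood below mock in 4 of 4 libraries as deposited. After scaling, CYP1B1 at 24 h of ANG in Panc-1 stood at 36.8 against 35.3 in mock, so its direction there depends on the scaling. Against the mean of 1 h and 5 h, the 24 h libraries were lower in 4 of 4 courses of line and ligand for CYP1A1 (mean -1.03 ± 0.23, SD over 4 courses, or -1.96 with a pseudocount of 0.1) and CYP1B1 (-1.26 ± 0.53). TIPARP was lower at 24 h in 4 of 4 courses as well, by less (-0.36 ± 0.25). ARNT was higher at 24 h in 4 of 4 courses (0.26 ± 0.17), or in 3 of 4 after scaling. For AHR, 24 h minus the mean of 1 h and 5 h was -0.26 with EGF and -0.14 with ANG in Panc-1, and 0.96 with EGF and 1.24 with ANG in AsPC-1. For comparison, 15.2% of all 13427 tested genes passed the limma test of 24 h against 1 h and 5 h, and nothing is read from the members against that share. All these comparisons with mock rest on the same mock library in each line.

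The ligands were compared within each line and time. CYP1A1 was lower with EGF than with ANG in 6 of 6 pairs, by a mean log2(RPKM + 1) difference of -0.43 ± 0.37 (SD, n = 6 pairs). The size ranged from -0.049 at 24 h in Panc-1, where both libraries hold under 10 estimated reads, to -0.87 at 5 h in AsPC-1. At that point CYP1A1 stood at 2.06 RPKM with EGF and 4.59 RPKM with ANG. At 24 h in AsPC-1 it stood at 0.84 RPKM with EGF and 2.25 RPKM with ANG. CYP1B1 was lower with EGF in 5 of 6 pairs (-0.20 ± 0.18), the exception being 1 h in AsPC-1, at 5.64 RPKM with EGF and 5.39 RPKM with ANG. ARNT and AHRR were each lower with EGF in 5 of 6 pairs, by -0.11 ± 0.16 and -0.15 ± 0.19, and both exceptions were 5 h in AsPC-1. These counts were the same after scaling to a common median. The share of reads in short genes differs between the ligands' libraries, as given above, and its part in these differences was not tested.

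AHR had opposite signs in the lines: EGF libraries were above ANG libraries in 3 of 3 pairs of Panc-1 (0.22 ± 0.11) and below them in 3 of 3 pairs of AsPC-1 (-0.50 ± 0.16). How many of all genes have such opposite signs was not counted. TIPARP was higher with EGF at 1 h in both lines, at 26.9 RPKM with EGF and 16.6 RPKM with ANG in Panc-1, and at 48.5 and 41.4 RPKM in AsPC-1. At 24 h it was lower with EGF in both. Of all genes, 0.156% passed the limma test of EGF against ANG, and nothing is read from the members against that share.

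**Figure D3:**
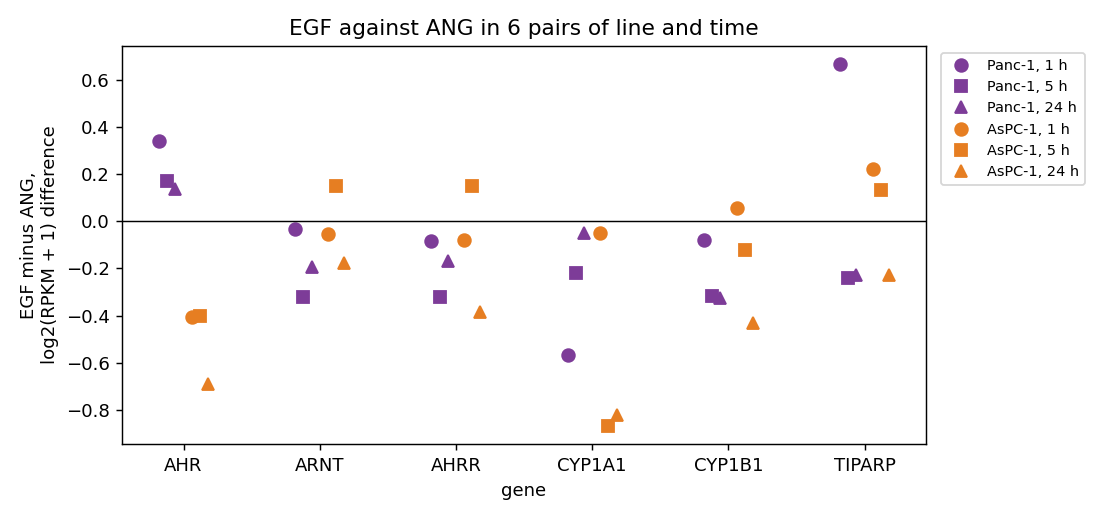
EGF minus ANG in log2(RPKM + 1) (y) for each gene (x), with 1 point per pair of line and time; purple is Panc-1, orange AsPC-1, and circles, squares and triangles are 1, 5 and 24 h. All 6 points of CYP1A1 lie below 0, and those of AHR split by line.

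The lines differed most in CYP1B1, which was higher in Panc-1 in 7 of 7 conditions, with 29.2 to 118 RPKM for Panc-1 against 2.17 to 5.78 RPKM for AsPC-1 (mean log2 difference 3.69 ± 0.49). CYP1A1 and TIPARP were lower in Panc-1 in 7 of 7, by -1.02 ± 0.42 and -1.37 ± 0.33. With a pseudocount of 0.1 these were -1.83 and -1.42, which turns their order. CYP1B1 exceeded CYP1A1 in 14 of 14 libraries, and their ratio was 40.6 to 195 for Panc-1 but 1.22 to 2.59 for AsPC-1. AHR had no fixed order: Panc-1 was above AsPC-1 in 4 of 7 conditions, the 1 h and 5 h ones. Per length, Panc-1 mock ran CYP1B1, AHR, ARNT, TIPARP, AHRR, CYP1A1 from high to low, and AsPC-1 mock ran AHR, TIPARP, ARNT, AHRR, CYP1B1, CYP1A1. Over the 7 libraries of Panc-1 the ranges of ARNT and TIPARP overlap, as do those of CYP1B1 and AHR, and in AsPC-1 those of AHR and TIPARP, of ARNT and AHRR, of AHRR and CYP1B1, and of CYP1B1 and CYP1A1. Since 68.8% of all genes passed the limma test between the lines, a difference between them is the usual case.

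Across the 14 libraries, with the mean of each line taken away, CYP1A1 and CYP1B1 ran together (Pearson r = 0.87). ARNT and AHRR did too (r = 0.75), and AHR followed none of the other members (r from -0.35 to 0.15). These values are descriptions over libraries that share a line, a mock and a split by time. Among the genes most like CYP1B1 were EPC1 (r = 0.98) and PIGW (r = 0.98), and those most like CYP1A1 were ALMS1 (0.93), ATXN7L2 (0.91) and FAM173B (0.90). TIPARP ran closest to the early-response transcription factors KLF10 (0.85) and FOSB (0.83), and to SPATA2 (0.82). Among the closest to AHR were GDA (0.98) and LACTB2 (0.97). The closest to ARNT were MGC57346 (0.95), ZFP36L1 (0.95) and PRRT2 (0.94), and to AHRR ZNF251 (0.98), DCAF5 (0.97) and BCOR (0.97).

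Beside the members, 55 symbols of the wider pathway were listed, of which 54 are in the files and 46 passed the level filter. They were tested with limma on log2(RPKM + 1), with Benjamini-Hochberg adjustment over all 13427 genes. The lines are the only repeat in the comparisons with mock, so those p-values measure the spread between these libraries. The line test takes the 7 conditions as repeats, the time test the 4 courses and EGF against ANG the 6 pairs. With 1 library per line and condition, none of the p-values measures the spread between repeat cultures. In the 1 h and 5 h EGF libraries against mock, 2 listed genes rose and 2 fell, while 6.44% of all genes passed, and the median of the listed genes was -0.067 against -0.141 over all genes. SLC7A5, a large amino-acid transporter that carries tryptophan and kynurenine, rose (log2 fold change 1.19 ± 0.25 SE, adjusted p = 0.0310). It stood at 53.4 and 54.9 RPKM after 1 h and 5 h of EGF in Panc-1 against 29.9 in mock, and at 26.9 and 26.3 RPKM in AsPC-1 against 8.497 in mock. HES1, a Notch effector that is also listed as an AHR target, rose too (1.15 ± 0.19, adjusted p = 0.0187). It stood at 28.9 and 16.5 RPKM after 1 h and 5 h of EGF in Panc-1 against 11.04 in mock, and at 47.1 and 33.1 RPKM in AsPC-1 against 14.5 in mock. AFMID, which makes kynurenine, was among those that fell (-0.82 ± 0.13, adjusted p = 0.0164). The count of 4 was 3 when each library was centred on its median. It was 0 when either mock library, the 1 h EGF library of Panc-1 or the 5 h EGF library of AsPC-1 was left out, and it was 2 without the 5 h EGF library of Panc-1 or the 1 h EGF library of AsPC-1. The count over all genes, 865, was 0 to 409 with 1 library left out.

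In the 1 h and 5 h ANG libraries against mock limma called 0 of the 46 and 2.61% of all genes (351, or 0 to 6 with 1 library left out). SLC7A5 (1.06 ± 0.25, adjusted p = 0.063) and AFMID (-0.53 ± 0.13, adjusted p = 0.067) moved the same way as with EGF without passing. Both ligands are set against the same mock library in each line, so a shared direction is partly built in. HES1 moved by less with ANG (0.42 ± 0.19, adjusted p = 0.248). Of the 46, 6 were under 0.05 before adjustment, and their median was -0.093 against -0.145 over all genes. At 24 h against mock 0 of the 46 passed with either ligand, with 2 for EGF and 0 for ANG at an unadjusted p under 0.05, and 0% of all genes passed in either comparison (961 genes for EGF and 202 for ANG at an unadjusted p under 0.05, limma). The medians were -0.101 of the listed and -0.125 of all genes for EGF, and -0.095 and -0.088 for ANG. Between EGF and ANG 0 of the 46 passed, with 8 at an unadjusted p under 0.05, and the listed median was 0.046 against -0.017 over all genes.

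Over time, 9 of the 46 passed in 24 h against 1 h and 5 h, 3 of them higher and 6 lower at 24 h, against 15.2% of all genes. The median of the listed genes was -0.038 and that of all genes 0.056. Adjusted p-values of the 9 ran up to 0.0294. SLC7A5 (-0.88 ± 0.15, adjusted p = 0.00935), HES1 (-0.72 ± 0.17, adjusted p = 0.0258) and the chaperone HSP90AA1 (-0.37 ± 0.078, adjusted p = 0.0192) fell, and CYP2S1, a further P450 gene known as an AHR target (0.53 ± 0.11), and AFMID (0.50 ± 0.098) were among those that rose. Of the 12 HIF-1 targets, which need ARNT as well, 3 fell at 24 h: the glucose transporter SLC2A1 (-0.84 ± 0.20), the peptide hormone ADM (-0.59 ± 0.14) and the prolyl hydroxylase EGLN3 (-0.40 ± 0.092). The other 9 did not pass. CYP2S1 stood in Panc-1 at 1.17 to 1.39 RPKM at 1 h and 5 h against 1.81 to 2.03 RPKM in mock and at 24 h. In AsPC-1 these were 4.97 to 7.10 RPKM against 8.41 to 12.7 RPKM. Its early levels lay below mock while those of CYP1B1 lay above it. The early comparisons with mock did not call CYP2S1 (adjusted p = 0.1122 with EGF and 0.1365 with ANG, limma). How many of all genes split by time as CYP2S1 does was not counted. The count over all genes, 2043, was 254 to 906 with 1 course left out. The count of 9 was 1 without the EGF course of Panc-1, 0 without its ANG course, 5 without the EGF course of AsPC-1 and 0 without its ANG course.

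Between the lines 34 of the 46 passed, 18 higher and 16 lower in Panc-1, against 68.8% of all genes, with a median of 0.061 for the listed genes and 0.133 for all genes. Of the 18 further AHR targets 12 could be tested, and 3 were higher and 7 lower in Panc-1. The conjugating enzymes UGT1A1 (-5.16 ± 0.15, adjusted p = 1.26e-08) and UGT1A6 (-4.96 ± 0.16) stood at 0.38 to 0.81 RPKM in Panc-1 libraries against 24.0 to 73.7 RPKM in AsPC-1 libraries. They share exons, and reads in those exons cannot be told apart. The aldehyde dehydrogenase ALDH3A1 (-4.06 ± 0.25, adjusted p = 1.24e-06) stood at 0.11 to 0.42 RPKM in Panc-1 libraries and 12.3 to 46.3 RPKM in AsPC-1 libraries. In AsPC-1 it stood at 12.3 to 18.5 RPKM at 1 h and 5 h against 46.3 RPKM in mock. The lower of the AsPC-1 libraries of 24 h stood at 13.0 RPKM, within the early range. The early comparisons with mock over both lines did not call ALDH3A1 (adjusted p = 0.261 with EGF and 0.245 with ANG, limma). STC2, a secreted glycoprotein, went the other way (4.99 ± 0.22), with 17.1 to 51.5 RPKM in Panc-1 libraries against 0.04 to 0.14 RPKM in AsPC-1 libraries. In Panc-1 its 1 h and 5 h values, 47.8 to 51.5 RPKM, do not overlap those of mock and 24 h, 17.1 to 22.9 RPKM. Over both lines limma did not call it in 24 h against 1 h and 5 h (-0.65 ± 0.23, adjusted p = 0.0945). Nor did it in the early comparisons with mock (adjusted p = 0.33 with EGF and 0.32 with ANG, limma). How many of all genes split in this way was not counted.

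Among partners and coregulators, ARNT2 (1.62 ± 0.13), HIF1A (0.82 ± 0.10) and RELB, an NF-κB subunit that can pair with AHR (1.19 ± 0.066), were higher in Panc-1, and the clock factor ARNTL (-1.09 ± 0.12) and the corepressor NCOR1 (-0.78 ± 0.16) were lower. KLF6 (0.56 ± 0.21) and RB1 (0.40 ± 0.15), which can bind AHR, were higher by less. Both lost their call with centred libraries, with no level filter, and without the 1 h or 5 h condition of either ligand, and RB1 also without 24 h of EGF. Of the cytosolic chaperones, HSP90AB1 was higher (0.40 ± 0.10) and HSP90AA1 lower (-0.49 ± 0.066) in Panc-1, and the call of HSP90AB1 was lost with centred libraries. Of the 12 HIF-1 targets 5 were higher and 4 lower in Panc-1. BNIP3, a mitophagy receptor (4.51 ± 0.075), and ADM (3.50 ± 0.18) were higher, and SLC2A1 (-3.59 ± 0.22) and NDRG1 (-2.78 ± 0.30) were lower. Of the tryptophan route, KMO (1.28 ± 0.17), AFMID (1.13 ± 0.079) and IL4I1 (0.95 ± 0.11) were higher and KYNU (-1.23 ± 0.12) was lower in Panc-1. The enzymes that open the route, IDO1 and TDO2, stayed at or under 0.25 RPKM in every library. CYP1A2, the third enzyme of the CYP1 family, was at 0.03 RPKM at most, and GSTA1 and GSTA2, which are near-identical copies, were listed at 0 throughout.

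**Figure D4:**
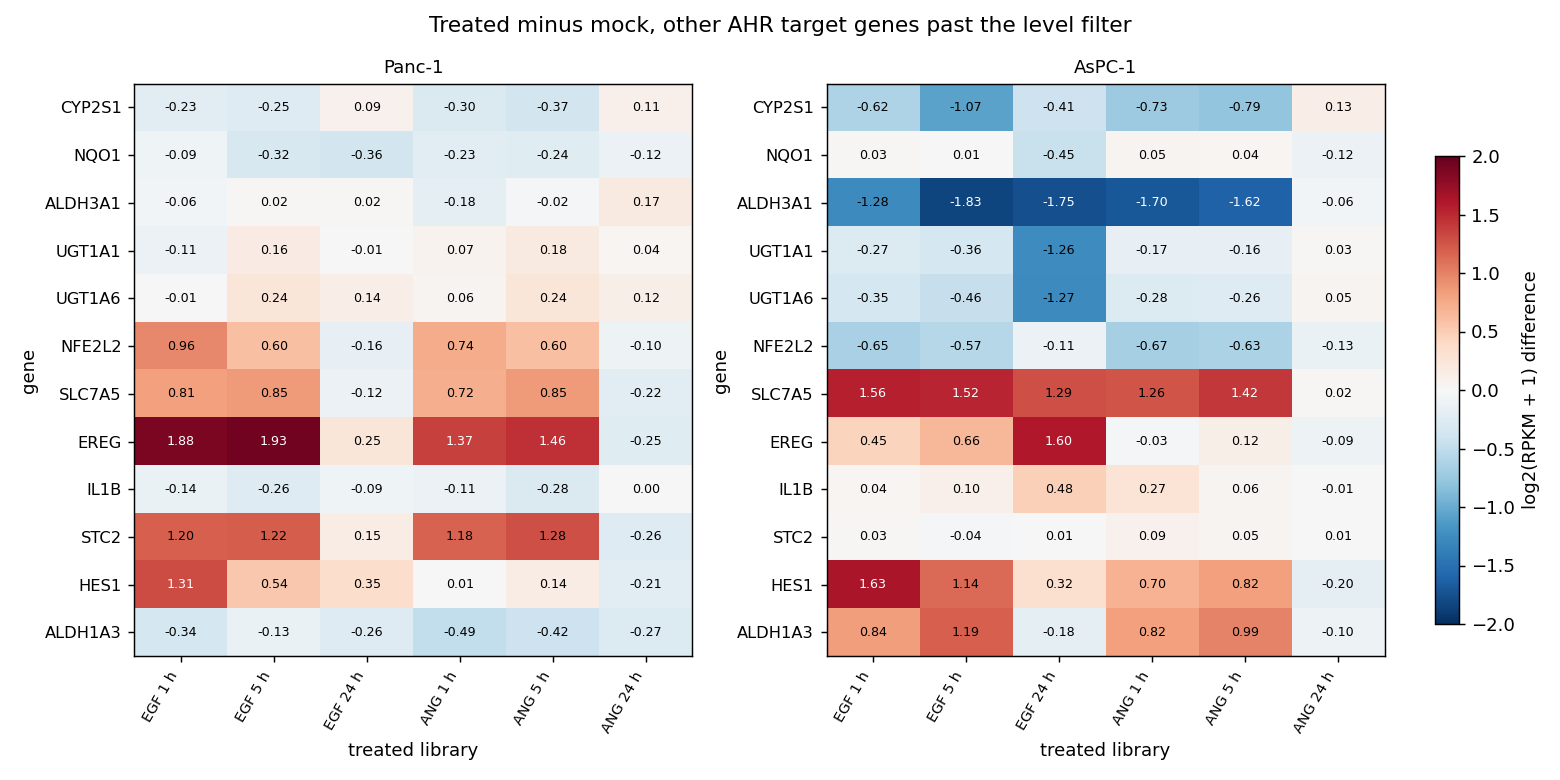
Difference in log2(RPKM + 1) between each treated library (x) and the mock library of its line for the 12 further AHR targets that passed the level filter (y), Panc-1 left and AsPC-1 right. SLC7A5 is above mock at 1 h and 5 h in both lines, and ALDH3A1 is below mock in AsPC-1 in all treated libraries but that of 24 h of ANG, where it stands near mock.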

How the data were processed

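The data are RNA sequencing of total RNA from 14 libraries, 7 conditions in each of 2 cell lines, with groups taken from the labels and 1 library per group. The deposited values are log2 RPKM computed by the authors, per the file headers, with hg19 as the genome per the submitters' notes on processing. No aligner, counting tool or strand setting is given in the sources used here. The values were turned back to RPKM, with the lowest log2 value of -8.966 read as 0. Depth was worked out from genes that span 150 bp or less, whose values were whole multiples of 1 read within 0.1 for 100% of values below 30 reads.

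Tests were made with limma 3.58.1 (R 4.3.3, level-dependent variance) on log2(RPKM + 1). A gene entered if 2 or more libraries reached 1 RPKM, which 13427 did, and adjustment was by Benjamini-Hochberg over these, with a threshold of 0.05. The pseudocount of 1 understates the change of low genes. EGF against ANG used 6 pairs of line and time as blocks, time 4 courses, the lines 7 conditions, and mock comparisons a model of line and condition. The fits were also run on simulated data with independent noise in each library. That run does not show how they behave with spread between repeat cultures. The members and lists were chosen with earlier results of these data known. Besides the members, the text names up to 4 genes past the test per list and comparison, and the 3 genes most like each member by Pearson r; symbols of unnamed loci and small RNAs were skipped. IDO1, TDO2, CYP1A2, GSTA1, GSTA2, PDCD6, LOC100287227 and EREG are named outside this rule, after their values were seen. Some genes that the rule would name are not reported here. Alternatives were a pseudocount of 0.1, no filter, centred or scaled libraries, no pair block and leaving out libraries, pairs, courses or conditions.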

Additional observations from a re-analysis of the deposited data

Results flagged for a closer look

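AHR had opposite signs in the lines in the comparison of EGF with ANG. All 3 pairs of Panc-1 were above 0 (mean log2 difference 0.216) and all 3 pairs of AsPC-1 below 0 (mean -0.50), 0.716 apart. AHRR had opposite signs in the 1 h and 5 h libraries against mock, with the overlap of PDCD6 as a limit on its values. It was below mock in 4 of 4 in Panc-1 (mean -0.778) and above it in 4 of 4 in AsPC-1 (mean 0.148), -0.926 apart. The same opposite pattern was seen in NDRG1, a stress and hypoxia-responsive gene (-0.688 in Panc-1 and 0.911 in AsPC-1, -1.598 apart), and in KMO (0.532 and -0.313, 0.846 apart), against the same mock libraries. Between EGF and ANG it was seen in ADM (-0.116 in Panc-1 and 0.595 in AsPC-1, -0.711 apart), EGLN3 (-0.369 and 0.127, -0.497 apart) and IL4I1 (0.263 and -0.079, 0.342 apart). KMO was near the floor in AsPC-1, at 0.09 to 0.20 RPKM at 1 h and 5 h and 0.15 to 0.40 RPKM in mock and at 24 h. IL4I1 was low there as well, at 0.75 to 1.13 RPKM. None of these differences between the lines was tested, and the values are as deposited, without scaling. Only the members and named genes were searched for opposite signs. How many of all genes have them was not counted.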

How the results depend on the processing

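Depth limits CYP1A1 in Panc-1 most, where mock and 24 h hold 5 to 9 estimated reads, and with 1 library per condition no value has a repeat within a line. Of the 60 values of the members under another scaling or pseudocount, 51 kept their sign within their SD. Scaling turned ARNT at 1 h and 5 h in AsPC-1 (0.0074, against -0.27 as deposited) and AHRR at 24 h against 1 h and 5 h (-0.0026, against 0.064 as deposited). It moved the early differences in AsPC-1 to 0.42 for AHRR, 0.76 for CYP1B1 and 0.50 for TIPARP. A pseudocount of 0.1 gave 0.62 for CYP1B1 there, and for CYP1A1 2.33 at 1 h and 5 h in Panc-1, -1.96 for 24 h against 1 h and 5 h and -1.83 for Panc-1 against AsPC-1.

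Of the 22 counts of listed genes under another pseudocount, filter, scaling or block, all stayed within 1.5 times. Leaving out 1 pair gave 0 to 1 listed genes between EGF and ANG (EREG, without 24 h in AsPC-1), leaving out 1 course 0 to 5 over time, leaving out 1 library 0 to 2 for early EGF against mock, and leaving out 1 condition 30 to 36 between the lines. With 1 library, pair, course or condition left out, counts over all genes were 0 to 14 for EGF against ANG, 254 to 906 over time, 0 to 409 for early EGF, 0 to 6 for early ANG and 8531 to 9094 between the lines (9243 with all). Other settings moved them too. EGF against ANG called 21 genes, 0 without the filter and 1 with no replicate block. Early EGF against mock called 150 higher and 715 lower, or 239 and 290 with centred libraries, and early ANG 35 and 316, or 22 and 30 centred and 136 in all without the filter. For 24 h against 1 h and 5 h the split was 1184 and 859, or 994 and 1266 centred, and 24 h of EGF called 0, or 1 without the filter. The cause of these moves was not tested.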
